A study of Mus musculus with 18 samples.

Results

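The comparison described here is that of daily asparaginase injections with phosphate-buffered saline (PBS) in young adult mice of 8 weeks, taken across all genes of the liver. It rests on 6 of the 18 libraries of the series, chosen by their labels alone. The 3 asparaginase libraries came from 1 female (replicate 1) and 2 males (replicates 2 and 3), and the 3 PBS libraries from 2 females (replicates 1 and 3) and 1 male (replicate 2). All mice had the C57BL/6J background. The treated mice received 8 daily intraperitoneal injections of L-asparaginase (Elspar) at 3 IU per g of body weight, and the PBS mice received the same volume of saline 8 times. Injections were given at about 8 AM, and the liver was taken 7.5 h after the last of them. The other 12 libraries, from mice of 2 and 16 weeks given 7 injections, enter the estimate of spread and the comparisons between ages. The labels do not say whether each library is 1 mouse; p-values therefore measure the spread between libraries.

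Asparaginase is a bacterial enzyme used against lymphoblastic leukaemia. It breaks down asparagine and, more slowly, glutamine in the blood. Liver cells sense the loss of an amino acid through the kinase GCN2, which is activated by uncharged transfer RNA and phosphorylates the initiation factor eIF2. Translation then slows in general but increases for the transcription factor ATF4, whose targets include amino acid synthesis enzymes, transporters and the stress genes Trib3, Ddit3 and Fgf21.

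Total counts lay between 35651152 and 43622389 in the asparaginase libraries and between 36173744 and 44371476 in the PBS libraries. In 6 of the 6 libraries Xist and 4 Y-linked genes fitted the sex on the label. Transcripts of the hepatocyte list summed to between 92550 and 107400 CPM (gene counts divided by library size, on one scale for the 18 libraries) with asparaginase and between 99070 and 129600 CPM with PBS. The major urinary protein (Mup) genes, which male mice express at high levels, took 5.39%, 37.4% and 23.5% of the counts in asparaginase replicates 1 to 3, and 22.8%, 43.0% and 20.7% in PBS replicates 1 to 3. The lowest share was thus that of the female asparaginase library.

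Asparaginase replicates 1 and 2 stood apart by transcripts of stratified squamous epithelium, the layered lining of skin, mouth, oesophagus and forestomach. Krt13, a keratin of such linings, stood at 393, 209 and 4.21 CPM in asparaginase replicates 1 to 3, against 2.77, 0 and 0.1498 CPM in PBS replicates 1 to 3. Its partner Krt4 stood at 305, 164 and 3.67 CPM in the asparaginase libraries, against 1.72, 0.199 and 0.04995 CPM in the PBS libraries. Both keratins were thus high in asparaginase replicates 1 and 2 and close to the highest PBS library in replicate 3. The 22 markers of this tissue summed to 861, 463 and 13.4 CPM with asparaginase, against 9.15, 1.72 and 2.95 CPM with PBS. Of its defining markers, Krt78, Krt6a, Dsg3, Dsc3 and Serpinb5 were at 0 in the 3 PBS libraries, and Krt6a and Serpinb5 also in asparaginase replicate 3. The same keratins were present in libraries of other ages: Krt13 reached 29.2 CPM in 2-week PBS replicate 3, 14.4 CPM in 2-week asparaginase replicate 1 and 7.15 CPM in 16-week PBS replicate 2.

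Asparaginase replicate 1 also held transcripts of other tissues. The 22 pancreatic acinar markers summed to 252, 10.3 and 20.6 CPM with asparaginase, against 11.7, 10.1 and 10.4 CPM with PBS. The 17 skeletal muscle markers summed to 3341, 542 and 229 CPM with asparaginase, against 968, 434 and 1213 CPM with PBS. The pancreatic enzyme Amy2a5 stood at 81.1, 0.627 and 5.20 CPM with asparaginase, against 0.478, 0.133 and 0.200 CPM with PBS. Replicate 1 was the highest 8-week library for each of these lists, and the muscle sums of the groups overlapped. Replicate 3 lay above the PBS libraries in 17 of the 21 acinar genes tested, beside 22.9% of all genes. Whether such transcripts take part in the results below was not tested beyond the values given with each of them.

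**Figure D1:**
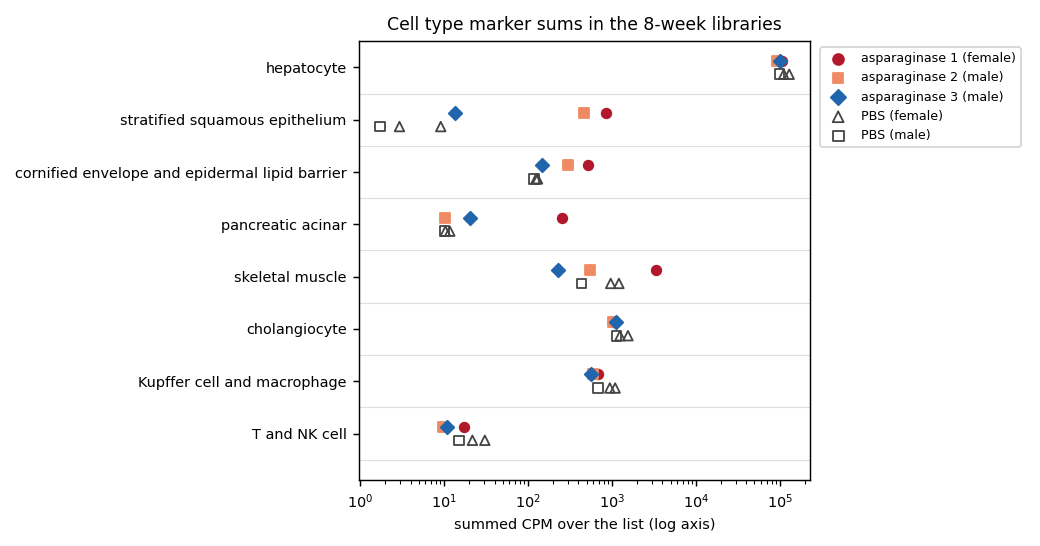
Summed CPM of 8 marker lists in each 8-week library (log axis); filled symbols are the asparaginase replicates 1 to 3, drawn above the open symbols of the PBS libraries (triangles female, squares male). Squamous markers reached 861 and 463 CPM in asparaginase replicates 1 and 2 and 13.4 CPM in replicate 3, while hepatocyte markers lay between 92550 and 129600 CPM throughout.

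Of 16213 genes tested, 31 (0.191%) rose and 28 (0.173%) fell with asparaginase at an adjusted p under 0.05 (edgeR's quasi-likelihood test). Adjusted p-values of the 59 genes lay between 0.0392 and 0.0497, so the calls formed a step at the threshold. An unadjusted p under 0.05 was reached by 2989 genes (18.4%), and DESeq2 called 339 rises (2.09%) and 320 falls (1.97%), among them the 59. The median absolute log2 fold change was 2.20 among the called rises and 0.72 among the called falls. The largest rises, Aloxe3 (6.36), Pof1b (5.48) and Acsbg1 (4.92), were near 0 in PBS and high in asparaginase replicates 1 and 2. Pabpc4, Fnip1, Brca2 and Pck2, with treated libraries close together, rose by 0.68, 0.70, 0.78 and 1.00. Asns, Mthfd2 and Psat1, lowest in replicate 1 among the treated libraries, rose by 1.80, 1.95 and 2.05. In 31 of 31 rises and 28 of 28 falls the difference had the same sign in females (1 library against 2) and in males (2 against 1), and asparaginase replicate 3 lay on that side of the male PBS library. The genes were called from these same libraries with a sex term, which favours such agreement, so it describes the calls and supports nothing. The count of called genes rested on the whole design: it was 2 without the sex term and 0 from the 6 libraries of 8 weeks alone. It was also 0 when any of 6 libraries was left out (2-week PBS 2, 2-week asparaginase 2, 8-week PBS 3, 8-week asparaginase 1, 16-week PBS 2 and 16-week asparaginase 1). Of the other libraries that moved it by more than 1.5 times, 16-week PBS 1 and 3 gave 1 and 7, 16-week asparaginase 2 and 3 gave 4 and 7, and 2-week asparaginase 3 gave 8. Leaving out 8-week PBS 1 or 2 gave 15 or 114, 8-week asparaginase 2 or 3 gave 32 or 398, and 2-week PBS 1 gave 159.

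The called genes were split by how far the treated libraries carried the change, as a description without a test. In 19 of the 31 rises the 3 asparaginase libraries lay above the 3 PBS libraries, as they did for 7.29% of all genes tested. These were Asns, Psat1, Mthfd2, Pck2, Mt1, Krt23, Evpl, Pof1b, Spink5, Dsg1a, Dsg1b, Dsg1c, Gja1, Slc20a1, Avil, Pabpc4, Fnip1, Brca2 and Gm10110. Pof1b had 5 counts in both asparaginase replicate 3 and PBS replicate 3, so its place here rests on library scaling. In 9 rises replicates 1 and 2 lay above the PBS libraries and replicate 3 did not, against 4.48% of all genes: Acsbg1, Aloxe3, Elovl7, Epn3, Tmprss4, Aif1l, Ahnak, Phgdh and Mt2. Il1rn and Phlda3 were above PBS in replicate 1 alone, and Abcb1a in replicates 1 and 3. Of the 28 falls, 24 had the 3 asparaginase libraries below the 3 PBS libraries, as 8.57% of all genes did, and 2 (Gm10184 and Gm10259) had replicates 1 and 2 below, as 3.63% of all genes did. Replicate 1 was the highest treated library in 27 of the 31 rises and the lowest in 20 of the 28 falls.

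**Figure D2:**
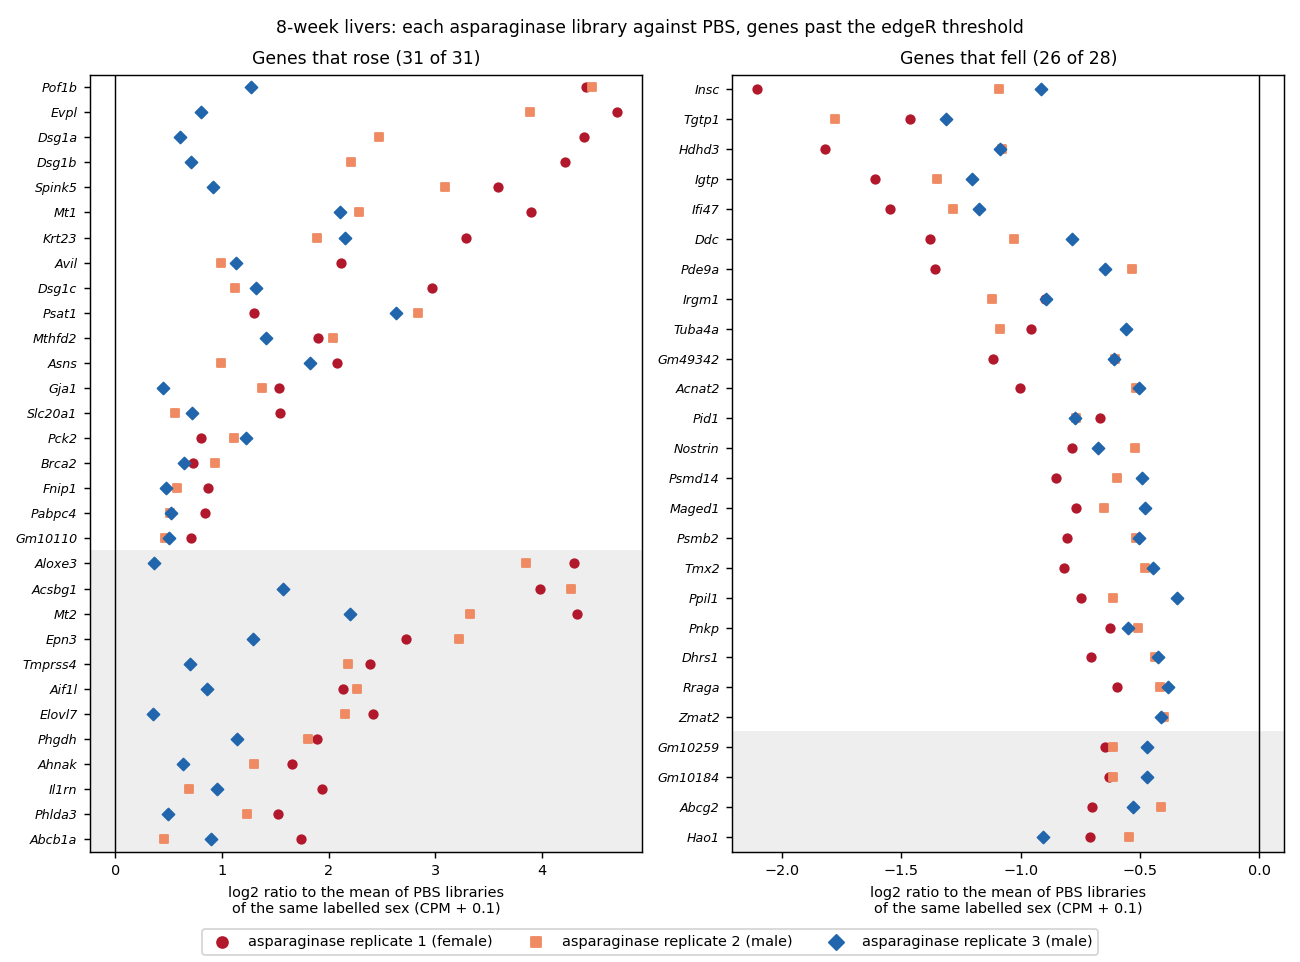
Log2 ratio of each asparaginase library to the mean of the PBS libraries of its labelled sex, with 0.1 CPM added to both, for the 31 genes that rose (left) and 26 of the 28 that fell (right). White rows hold the 19 rises and the 22 plotted falls in which the 3 asparaginase libraries lay beyond the 3 PBS libraries, and grey rows hold the rest.

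A second description used the ratio of replicate 1 to replicate 2. Among the 18 squamous markers with at least 1 CPM in both libraries this ratio lay between 1.21 (Krt14) and 2.36 (Krt78), with a median of 1.82. Of the 31 rises, 14 had a ratio within that range: Evpl, Pof1b, Spink5, Acsbg1, Aloxe3, Elovl7, Epn3, Aif1l, Ahnak, Avil, Gja1, Slc20a1, Pabpc4 and Pck2. Another 6 had a lower ratio, namely Asns, Psat1, Mthfd2, Brca2, Fnip1 and Gm10110. The remaining 11 had a higher one: Mt1, Mt2, Phgdh, Krt23, Il1rn, Phlda3, Tmprss4, Abcb1a, Dsg1a, Dsg1b and Dsg1c. A ratio within the range does not show that a transcript came with the squamous markers, and a ratio outside it does not show the reverse.

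The genes of the amino acid response are shown first with the sequence before their start, because Asns and Pck2 were the ATF4 targets of smallest p. The 250 bases before each gene start are from RefSeq (GRCm38.p6), and capitals mark the letters TGATGNAA on either strand, the core of the element that ATF4 binds with C/EBP partners. The windows are chr6:7693210-7693459 on the minus strand for Asns and chr14:55540016-55540265 on the plus strand for Pck2.
Asns: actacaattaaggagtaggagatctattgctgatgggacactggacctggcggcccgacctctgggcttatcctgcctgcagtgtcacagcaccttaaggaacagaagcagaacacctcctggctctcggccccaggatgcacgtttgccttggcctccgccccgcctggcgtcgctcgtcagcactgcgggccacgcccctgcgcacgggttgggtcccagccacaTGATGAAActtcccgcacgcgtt
Pck2: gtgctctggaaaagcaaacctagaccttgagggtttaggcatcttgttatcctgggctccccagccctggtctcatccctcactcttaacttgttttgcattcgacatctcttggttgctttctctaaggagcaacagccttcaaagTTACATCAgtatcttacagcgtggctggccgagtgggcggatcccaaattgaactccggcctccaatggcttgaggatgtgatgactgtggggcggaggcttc
The match begins 23 bases before the Asns start and 103 bases before the Pck2 start. Such letters occur in 3.45% of 32851 RefSeq windows of this length, and a match is a description, not a site.

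Asns, the rise of smallest p, is given first with 2 further enzymes of serine and folate metabolism. Asns, asparagine synthetase, which makes asparagine from aspartate and glutamine, stood at 4.15, 7.95 and 14.2 CPM in asparaginase replicates 1 to 3, against 0.893, 3.94 and 0.924 CPM in PBS replicates 1 to 3. The 3 treated livers lay above the 3 PBS livers, though asparaginase replicate 1 exceeded the male PBS library by little. Within sex the level was 4.57-fold higher in females and 2.81-fold higher in males, and the log2 fold change was 1.80 (SE 0.24, adjusted p 0.0392). Psat1, a serine synthesis enzyme, stood at 2.63, 6.52 and 5.65 CPM with asparaginase, against 0.925, 0.828 and 1.10 CPM with PBS. Its groups were apart, with replicate 1 the lowest treated library, and the log2 fold change was 2.05 (SE 0.34, adjusted p 0.0398). Mthfd2, a mitochondrial folate enzyme, stood at 2.21, 4.93 and 3.16 CPM with asparaginase, against 0.414, 1.13 and 0.624 CPM with PBS. It rose by a log2 fold change of 1.95 (SE 0.33, adjusted p 0.0398), again without overlap. These 3 genes were higher in replicate 2 than in replicate 1, while the squamous markers were higher in replicate 1. This order does not tell the source of a transcript, which was not tested.

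Pck2, the mitochondrial phosphoenolpyruvate carboxykinase, stood at 6.88, 5.36 and 5.79 CPM with asparaginase, against 4.08, 2.42 and 3.70 CPM with PBS. The groups were apart by a log2 fold change of 1.00 (SE 0.14, adjusted p 0.0392). Phgdh, the first enzyme of serine synthesis, stood at 1.59, 0.598 and 0.339 CPM with asparaginase, against 0.414, 0.0994 and 0.300 CPM with PBS. Here the treated replicate 3 fell among the PBS libraries, and the log2 fold change was 2.17 (SE 0.41, adjusted p 0.0468). Ratios within sex were 4.46 in females and 4.72 in males. They rest on few counts: 13, 3 and 12 in PBS replicates 1 to 3 and 12 in treated replicate 3. Psat1, Mthfd2 and Phgdh were the 3 rises among the 41 genes tested in the serine, glycine and folate list, in which none fell by edgeR (6 rose and 2 fell by DESeq2, 1 and 0 by limma-voom). Of the 41, 18 had a positive and 23 a negative fold change, and the list's median log2 fold change was -0.07, beside 0.01 over all genes.

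The stress regulators that ATF4 is known to switch on did not pass the edgeR threshold. Trib3, a pseudokinase that restrains ATF4 and AKT signalling, stood at 27.3, 29.5 and 27.0 CPM with asparaginase, against 11.0, 8.71 and 4.30 CPM with PBS. Its 3 treated libraries were close together and above the PBS libraries, with a log2 fold change of 1.77 (SE 0.40, adjusted p 0.0627 by edgeR and 0.00861 by DESeq2). Fgf21, a hormone the liver secretes in amino acid shortage, stood at 2.19, 19.9 and 28.8 CPM with asparaginase, against 0.446, 2.38 and 0.924 CPM with PBS. The males given asparaginase were high and the female was below the male PBS library, with a log2 fold change of 2.61 (SE 0.83, adjusted p 0.131). The Fgf21 ratio of replicate 1 to replicate 2 was 0.110.

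Atf4 itself stood at 56.1, 87.5 and 82.5 CPM with asparaginase, against 60.9, 60.7 and 61.8 CPM with PBS (log2 fold change 0.18, SE 0.16, adjusted p 0.585). The 2 treated males lay above PBS and the treated female below. Atf5, a related factor, showed the same order, with 123, 241 and 306 CPM under asparaginase, against 194, 143 and 184 CPM under PBS (0.16, SE 0.37, adjusted p 0.847). Ddit3, which encodes CHOP, stood at 5.45, 9.57 and 14.1 CPM with asparaginase, against 5.26, 7.65 and 7.79 CPM with PBS (0.19, SE 0.32, adjusted p 0.790). Ppp1r15a, the regulatory subunit that reverses eIF2 phosphorylation, had a log2 fold change of -0.05 (SE 0.21, adjusted p 0.927). Sesn2, an inhibitor of mTORC1, had one of 0.42 (SE 0.24, adjusted p 0.364). For Atf4, Atf5 and Ddit3 the treated female thus lay at or below most PBS libraries, while the treated males lay above them.

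Over the whole list of ATF4 and CHOP targets, 55 of 55 genes passed the filter on low counts. By edgeR 5 rose and 0 fell, and by DESeq2 9 rose and 0 fell. In 16 members the 3 asparaginase libraries lay above the 3 PBS libraries, beside 7.29% of all genes, and in 2 below them, beside 8.57%. Taken alone, replicate 3 lay above the PBS libraries in 39 of 55, beside 22.9% of all genes. The median log2 fold change was 0.25, beside 0.01 over all genes. The 23 cytosolic aminoacyl-tRNA synthetases, which charge transfer RNA and are ATF4 targets in many cells, gave no call by edgeR: 0 passed, with 0 higher and 5 lower at an unadjusted p under 0.05 and 1 fall by DESeq2, and the median was -0.10. Wherever the text gives 0 calls of a list by edgeR in both directions, limma-voom also gave 0. List counts at an unadjusted p under 0.05 stand beside 18.4% of all genes, both directions together. Among the synthetases Tars stood at 37.7, 69.7 and 71.6 CPM with asparaginase, against 88.1, 80.5 and 81.8 CPM with PBS (-0.68, SE 0.21, adjusted p 0.129). Of 25 amino acid transporters tested 0 passed by edgeR (4 higher and 0 lower at an unadjusted p under 0.05, 1 rise by DESeq2). Slc7a5, an importer of large neutral amino acids, stood at 4.38, 4.27 and 4.26 CPM with asparaginase, against 2.90, 2.68 and 3.27 CPM with PBS (0.58, SE 0.19, adjusted p 0.141).

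**Figure D3:**
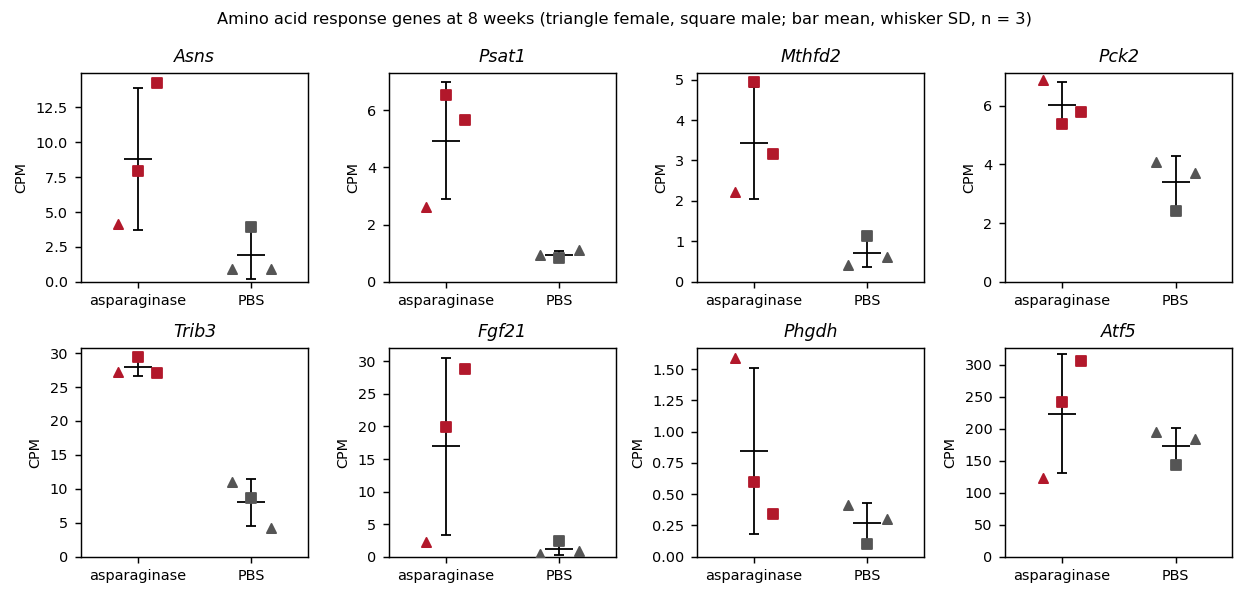
CPM of 8 amino acid response genes in the 3 asparaginase libraries (red, left in each panel) and the 3 PBS libraries (grey, right), with the mean as a bar and the SD as a whisker; triangles are female and squares male. Trib3 lay between 27.0 and 29.5 CPM in the treated livers, whereas Fgf21 was 2.19 CPM in the treated female and 19.9 and 28.8 CPM in the treated males.

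The metallothioneins Mt1 and Mt2, small cysteine-rich proteins that bind zinc and copper, were the members of their list that rose. The 250 bases before their starts (RefSeq, GRCm38.p6, plus strand, chr8:94178839-94179088 for Mt1 and chr8:94172368-94172617 for Mt2) are shown because the pair moved together. Capitals mark the core of the metal response element, TGCGCNC or TGCACNC on either strand.
Mt1: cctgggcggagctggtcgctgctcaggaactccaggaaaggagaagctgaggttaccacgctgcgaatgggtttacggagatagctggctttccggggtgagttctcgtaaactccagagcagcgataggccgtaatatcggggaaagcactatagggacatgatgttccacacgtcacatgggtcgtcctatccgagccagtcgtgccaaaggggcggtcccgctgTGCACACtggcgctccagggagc
Mt2: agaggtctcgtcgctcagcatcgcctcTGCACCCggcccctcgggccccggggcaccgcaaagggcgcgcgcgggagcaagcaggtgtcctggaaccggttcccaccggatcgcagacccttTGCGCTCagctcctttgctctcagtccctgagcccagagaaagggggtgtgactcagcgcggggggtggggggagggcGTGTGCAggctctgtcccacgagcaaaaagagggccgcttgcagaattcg
The Mt1 window holds 1 match and the Mt2 window 3, and 21.4% of the 32851 windows hold at least 1.

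Mt1 stood at 487, 68.8 and 60.6 CPM in asparaginase replicates 1 to 3, against 45.5, 14.0 and 19.98 CPM in PBS replicates 1 to 3. The treated female was far above the other libraries, and the treated males were above the highest PBS library. The ratio within sex was 14.9 in females and 4.61 in males, and the log2 fold change was 3.07 (SE 0.54, adjusted p 0.0398). Mt2 stood at 200, 31.7 and 14.5 CPM with asparaginase, against 15.3, 3.08 and 4.47 CPM with PBS. Replicate 3 was 4.71-fold above the male PBS library yet just below the PBS female of replicate 1 (log2 fold change 3.70, SE 0.67, adjusted p 0.0411). Of the 24 genes tested in the metallothionein and zinc transport list, the other 22 did not pass by edgeR. DESeq2 called 2 falls in the list: Slc39a4, a zinc importer, stood at 18.8, 33.5 and 31.8 CPM with asparaginase, against 54.2, 50.7 and 46.2 CPM with PBS, and Slc30a10, a manganese exporter, stood at 6.58, 17.8 and 18.3 CPM, against 21.2, 27.99 and 30.4 CPM with PBS. Slc39a4 and Slc30a10 were named after their values were seen. Both had the 3 treated libraries below the 3 PBS libraries, and their adjusted p by edgeR was 0.0545 for Slc39a4 and 0.0750 for Slc30a10.

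The cornified envelope is the outer shell of keratinocytes. Members of the list of cornified envelope and epidermal lipid barrier genes, which also holds Il1rn, made up 8 of the 31 rises, Il1rn among them. Of 50 entries in that list 32 were tested: 8 rose by edgeR, 17 by DESeq2 and 3 by limma-voom, and none fell by any of these tools. The 19 tested markers of squamous epithelium gave 0 calls by edgeR, 19 higher at an unadjusted p under 0.05 and 15 rises by DESeq2. Their median log2 fold change was 7.77, or 5.90 with the 5 genes at 0 in PBS set to their bound (3 counts over the group). Genes that passed the filter only through the libraries in which they are high had to differ, so these counts describe and support nothing. In 16 of the 32 cornified genes the 3 asparaginase libraries lay above the 3 PBS libraries, beside 7.29% of all genes.

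Evpl, envoplakin, a scaffold of the envelope, stood at 10.7, 4.81 and 0.480 CPM with asparaginase, against 0.383, 0.232 and 0.2497 CPM with PBS. Replicate 3 lay just above the PBS libraries and far below the other treated libraries (log2 fold change 4.51, SE 0.75, adjusted p 0.0398). Pof1b, an actin-binding protein of epithelial junctions, stood at 4.36, 2.11 and 0.141 CPM with asparaginase, against 0.0956, 0 and 0.125 CPM with PBS. Spink5, a protease inhibitor of the skin barrier, stood at 7.29, 4.42 and 0.904 CPM with asparaginase, against 0.478, 0.431 and 0.549 CPM with PBS. Both had replicate 3 above the PBS libraries by less than the gap to replicates 1 and 2. For Pof1b replicate 3 held 5 counts, against 3, 0 and 5 counts in PBS replicates 1 to 3. Evpl had 17 counts in replicate 3, against 12, 7 and 10 in the PBS libraries. Dsg1a, one of 3 desmoglein 1 paralogs between which reads may be split, stood at 11.1, 4.50 and 1.16 CPM with asparaginase, against 0.319, 0.729 and 0.549 CPM with PBS. Aloxe3, a lipoxygenase of the epidermal lipid barrier, had 150 counts over the 3 asparaginase libraries and 2 over the PBS libraries, a ratio of 66.9 (95% interval 18.2 to 558, counting error only). Asparaginase replicates 1 and 2 held 2.35 and 1.34 CPM of Aloxe3 and replicate 3 held 0.0282 CPM.

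Hrnr and Rptn, fused-type proteins of the envelope, were among the most abundant members. Hrnr stood at 69.2, 22.2 and 3.02 CPM with asparaginase, against 0, 0 and 0.175 CPM with PBS, and its adjusted p was 0.0653. Rptn stood at 57.0, 23.2 and 1.07 CPM with asparaginase, against 0.159, 0 and 0 CPM with PBS (adjusted p 0.0868). Lor, loricrin, stood at 49.5, 19.3 and 0.904 CPM, against 0.383, 0.166 and 0.2497 CPM with PBS (adjusted p 0.0583). Replicate 3 of the treated livers was thus above the PBS libraries for these genes too, at a small part of the level in replicates 1 and 2. Not every list member followed the squamous markers: Sdr9c7 stood at 16.0, 40.5 and 37.8 CPM with asparaginase, against 16.3, 45.1 and 20.5 CPM with PBS, with the 3 female libraries low and the 3 male libraries high. Ppl, periplakin, stood at 35.8, 15.2 and 19.8 CPM, against 12.8, 9.21 and 13.8 CPM with PBS (adjusted p 0.0687), so both genes were well above 0 in the PBS livers.

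In Krt23, an epithelial keratin, treated replicates 2 and 3 were close. It stood at 19.5, 3.96 and 4.77 CPM with asparaginase, against 2.61, 0.994 and 1.20 CPM with PBS, so replicate 3 exceeded replicate 2 and the 3 treated libraries lay above the 3 PBS libraries (log2 fold change 2.91, SE 0.55, adjusted p 0.0473). Dsg1c had the same order, with 42.5, 8.35 and 9.57 CPM under asparaginase, against 4.53, 3.78 and 6.14 CPM under PBS (2.20, SE 0.37, adjusted p 0.0398). Gja1, the gap junction protein connexin 43, stood at 12.9, 9.71 and 5.06 CPM with asparaginase, against 3.83, 3.68 and 5.00 CPM with PBS (1.29, SE 0.23, adjusted p 0.0398). Replicate 3 and PBS replicate 3 were nearly equal for Gja1, and the gap to the male PBS library was larger.

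Some rises were of modest size, with the 3 treated libraries clear of the PBS libraries. Fnip1, a partner of folliculin in nutrient signalling through mTORC1 and AMPK, stood at 51.0, 44.0 and 41.1 CPM with asparaginase, against 26.1, 29.5 and 29.6 CPM with PBS (log2 fold change 0.70, SE 0.12, adjusted p 0.0398). Pabpc4, a poly(A)-binding protein, stood at 62.1, 48.4 and 48.4 CPM, against 35.7, 33.8 and 33.5 CPM with PBS (0.68, SE 0.11, adjusted p 0.0398). Slc20a1, a phosphate importer, stood at 66.8, 40.9 and 45.6 CPM, against 20.4, 27.7 and 25.2 CPM with PBS (1.10, SE 0.19, adjusted p 0.0398). Brca2, a DNA repair gene, stood at 5.33, 5.73 and 4.66 CPM, against 3.06, 2.95 and 3.30 CPM with PBS (0.78, SE 0.13, adjusted p 0.0398). The treated libraries were close together for Brca2, Fnip1 and Pabpc4, while replicate 1 stood above the others for Slc20a1. PBS libraries of 8 weeks lay below PBS libraries of the other ages for Fnip1, Slc20a1 and Brca2, but among them for Pabpc4. Fnip1 stood at 41.4, 34.7 and 33.1 CPM in PBS at 2 weeks and 36.6, 38.1 and 40.3 CPM at 16 weeks. In PBS Slc20a1 stood at 43.4, 41.4 and 37.4 CPM at 2 weeks and 38.6, 31.5 and 29.6 CPM at 16 weeks. Slc20a1 and Brca2 overlap exons of genes on the opposite strand, and strand use in counting is not given in the sources used here.

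In other rises replicate 1 was far above the remaining treated libraries. Il1rn, the antagonist of the interleukin 1 receptor, stood at 12.8, 1.40 and 1.70 CPM with asparaginase, against 3.35, 0.828 and 3.17 CPM with PBS. Phlda3, a p53 target that inhibits AKT, stood at 6.69, 1.77 and 1.02 CPM, against 2.17, 0.696 and 2.35 CPM with PBS. Abcb1a, a drug exporter, stood at 22.01, 5.41 and 7.37 CPM, against 6.47, 3.91 and 6.57 CPM with PBS. In these genes the groups overlapped once sex was set aside, and the female asparaginase library was 2.96-fold above the PBS females for Phlda3. Ahnak, a large scaffold protein of many epithelia and muscle, stood at 64.6, 34.5 and 21.8 CPM, against 16.2, 14.0 and 24.8 CPM with PBS. The sums of the muscle and pancreas lists were highest in the same replicate 1, and their part in these rises was not tested.

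Among the falls were interferon-inducible GTPases, proteins of the immunity-related and guanylate-binding families that attack pathogen vacuoles and are induced by interferon gamma. Of 24 entries 21 were tested: 4 fell by edgeR and 9 by DESeq2, and none rose by either tool. The fold change was negative in 21 of 21, and the 3 treated libraries lay below the 3 PBS libraries in 14, beside 8.57% of all genes. Replicate 3, which held few squamous transcripts, lay below the PBS libraries in 21 of 21, beside 26.2% of all genes. The list's median log2 fold change was -0.80, beside 0.01 over all genes, and it was -0.81 relative to the median of all genes when libraries were scaled by total counts.

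The 250 bases before the start of Igtp (RefSeq, GRCm38.p6, chr11:58199306-58199555, plus strand) are shown because this GTPase gene carries matches to both interferon elements. Capitals mark TTCNNNGAA, the core of the interferon gamma-activated sequence, and the interferon-stimulated response element, searched as GAAA, any 2 bases and GAAA, on either strand.
Igtp: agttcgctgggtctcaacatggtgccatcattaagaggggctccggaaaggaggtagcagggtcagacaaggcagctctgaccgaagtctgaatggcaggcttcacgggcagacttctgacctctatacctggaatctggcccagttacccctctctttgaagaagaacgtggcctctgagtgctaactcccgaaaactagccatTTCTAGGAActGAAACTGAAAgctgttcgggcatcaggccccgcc
The first match begins 45 bases and the second 34 bases before the start. Such letters occur in 7.02% and 2.98% of the 32851 windows, and neither is in the Ifi47 window of the same length.

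Ifi47, an immunity-related GTPase, stood at 7.78, 6.12 and 6.61 CPM in asparaginase replicates 1 to 3, against 23.5, 15.1 and 22.3 CPM in PBS replicates 1 to 3. The groups were apart and the treated libraries close together (log2 fold change -1.40, SE 0.19, adjusted p 0.0392). Igtp stood at 15.8, 10.5 and 11.6 CPM with asparaginase, against 48.7, 26.9 and 48.0 CPM with PBS (-1.45, SE 0.22, adjusted p 0.0398). In both genes the male PBS library was the lowest of the PBS group and still above the treated libraries. Irgm1, which controls the other GTPases of the family, stood at 30.2, 21.3 and 24.97 CPM, against 58.1, 46.4 and 54.6 CPM with PBS (-0.95, SE 0.17, adjusted p 0.0411). Tgtp1, nearly identical to Tgtp2 so that reads may be split between them, stood at 7.96, 2.96 and 4.12 CPM, against 23.02, 10.4 and 21.3 CPM with PBS (-1.51, SE 0.28, adjusted p 0.0411). Ifi47, Igtp and Tgtp1 overlap exons of other genes, Igtp those of Irgm2.

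In the wider list of interferon signalling and antiviral genes 49 were tested: 1 fell by edgeR and 7 by DESeq2, and the list's median log2 fold change was -0.43. In 18 of the 49 the 3 treated libraries lay below the PBS libraries, beside 8.57% of all genes, and in none above.

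No gene of the antigen presentation and immune cell lists described next passed by edgeR (0 calls), and their medians were negative. The 26 genes of MHC class I and antigen processing were negative in 26 of 26 (median -0.44). By edgeR 0 were called, 15 were lower at an unadjusted p under 0.05 and 7 fell by DESeq2. Groups were apart in 14, all of these lower, beside 8.57% of all genes. The members of smallest p, Pdia3 and Calr, are chaperones of the peptide-loading complex that also belong to the endoplasmic reticulum (ER) list. Of 15 MHC class II genes 0 passed by edgeR, 8 were lower at an unadjusted p under 0.05 and 7 fell by DESeq2. H2-Eb1 stood at 13.9, 5.33 and 9.26 CPM with asparaginase, against 36.6, 13.8 and 23.4 CPM with PBS (-1.02, SE 0.25, adjusted p 0.0719). The groups overlapped at the treated female and the male PBS library, while within sex the treated libraries were lower.

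Of 25 Kupffer cell and macrophage genes 0 passed by edgeR, 17 were lower and 1 higher at an unadjusted p under 0.05 and 10 fell by DESeq2. Their median was -0.55, and 12 had groups apart, all of these lower, beside 8.57% of all genes. Vsig4, a complement receptor of Kupffer cells, stood at 13.9, 12.8 and 12.7 CPM with asparaginase, against 33.7, 18.9 and 30.3 CPM with PBS (-0.89, SE 0.18, adjusted p 0.0545 by edgeR and 0.000299 by DESeq2). Folr2, a folate receptor of resident macrophages, stood at 5.05, 5.50 and 5.42 CPM, against 16.1, 7.98 and 14.3 CPM with PBS (-1.07, SE 0.25, adjusted p 0.0646). In bulk tissue, fewer cells of a type and less RNA per cell cannot be told apart. The 24 T and NK cell genes had a median of -0.90 at low levels, with 0 called by edgeR, 10 lower at an unadjusted p under 0.05 and 1 fall by DESeq2. Trbc2, a T cell receptor constant segment, stood at 0.254, 0.342 and 0.282 CPM, against 1.31, 0.596 and 0.774 CPM with PBS (-1.47, SE 0.33, adjusted p 0.0627). The Kupffer cell sum was 680, 595 and 563 CPM with asparaginase, against 1094, 681 and 945 CPM with PBS, and that of T and NK cells was 17.1, 9.74 and 10.8 CPM, against 30.6, 15.1 and 21.8 CPM with PBS. For both sums the female and the male libraries of the treated group lay below their PBS counterparts, and the male PBS library was the lowest of its group. The sum of the B and plasma cell list did not have this order: it was 111, 178 and 138 CPM with asparaginase, against 190, 121 and 168 CPM with PBS, so the treated males lay above the male PBS library. Of its 14 genes tested 0 passed by edgeR or DESeq2 and 2 were lower at an unadjusted p under 0.05 (median -0.83).

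The summed ER chaperone list was low in replicate 1, while the other treated libraries lay within the PBS range: it came to 3621, 5593 and 5633 CPM with asparaginase, against 5412, 6389 and 5988 CPM with PBS. Of 41 genes 0 passed by edgeR, 19 were lower at an unadjusted p under 0.05 and 14 fell by DESeq2, with a median of -0.39. Groups were apart in 12, all of these lower, beside 8.57% of all genes. Replicate 3 lay below the PBS libraries in 14 of the 41, beside the 26.2% of all genes. Pdia3, a disulfide isomerase, stood at 156, 239 and 249 CPM with asparaginase, against 301, 347 and 326 CPM with PBS (-0.76, SE 0.16, adjusted p 0.0583). Calr, the calcium-binding chaperone calreticulin, stood at 174, 325 and 366 CPM, against 472, 462 and 519 CPM with PBS (-0.96, SE 0.22, adjusted p 0.0646). For Pdia3 and Calr the treated males lay below the PBS libraries and the treated female far below. The cytosolic heat shock list summed to 2885, 3038 and 4034 CPM with asparaginase, against 3631, 3874 and 3348 CPM with PBS, so replicate 3 was highest. Of its 20 genes 0 passed by edgeR, 5 were lower and 1 higher at an unadjusted p under 0.05, and 2 fell by DESeq2 (median -0.30). Its member Hsp90aa1 stood at 59.5, 80.1 and 162 CPM, against 137, 207 and 160 CPM with PBS (-1.05, SE 0.26, adjusted p 0.0710). For this gene replicate 3 lay among the PBS libraries.

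**Figure D4:**
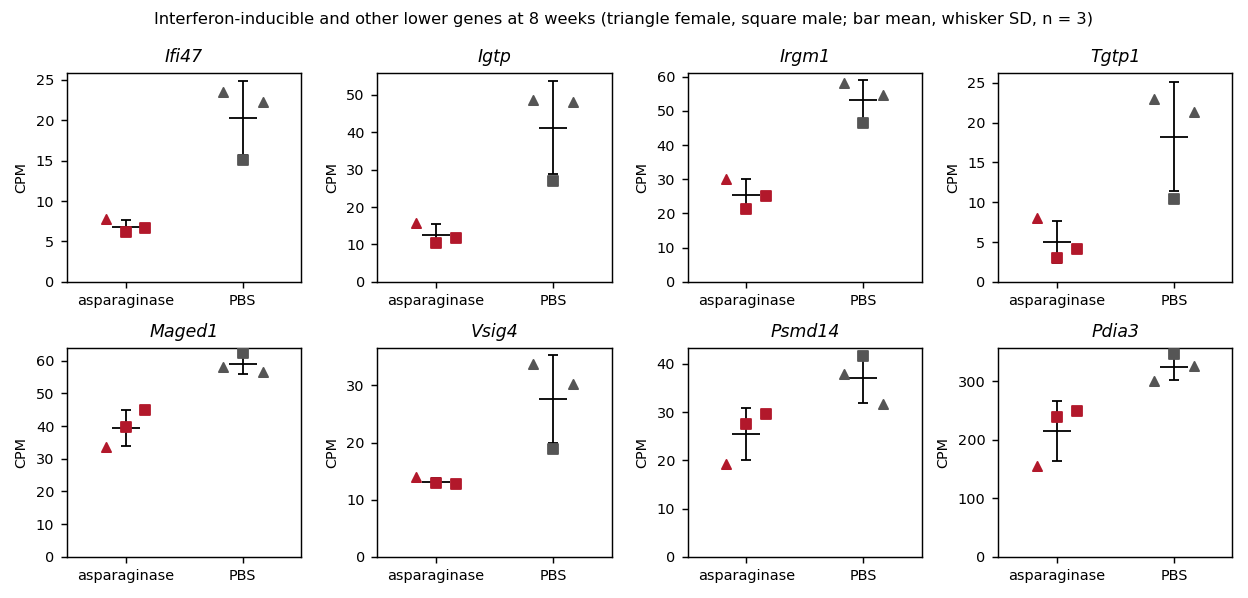
CPM of 8 genes with lower levels in the 3 asparaginase libraries (red, left in each panel) than in the 3 PBS libraries (grey, right), with the mean as a bar and the SD as a whisker; triangles are female and squares male. Ifi47 lay between 6.12 and 7.78 CPM in treated livers and between 15.1 and 23.5 CPM in PBS livers; Vsig4 and Pdia3 did not pass the edgeR threshold.

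Other falls were spread over unrelated functions. Ddc, the decarboxylase that makes dopamine and serotonin, stood at 16.1, 29.7 and 35.2 CPM with asparaginase, against 47.5, 60.6 and 36.9 CPM with PBS (-1.14, SE 0.20, adjusted p 0.0398). The groups were apart for Ddc, though treated replicate 3 and PBS replicate 3 were close. Maged1 stood at 33.6, 39.7 and 44.8 CPM, against 58.2, 62.4 and 56.5 CPM with PBS (-0.67, SE 0.10, adjusted p 0.0398). Pid1, an inhibitor of insulin signalling in fat and muscle cells, stood at 34.9, 39.3 and 39.2 CPM, against 54.8, 67.1 and 56.2 CPM with PBS (-0.72, SE 0.12, adjusted p 0.0398). Tuba4a, an alpha tubulin, stood at 58.4, 56.7 and 81.9 CPM, against 120, 121 and 106 CPM with PBS (-0.88, SE 0.16, adjusted p 0.0411). Maged1, Pid1 and Tuba4a, too, had the treated libraries below the PBS libraries.

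The subunits Psmd14 and Psmb2 of the proteasome, the protease of ubiquitin-tagged proteins, were both among the falls. Psmd14, the deubiquitinase of the lid, stood at 19.2, 27.5 and 29.6 CPM with asparaginase, against 38.0, 41.6 and 31.6 CPM with PBS (-0.70, SE 0.10, adjusted p 0.0392). Psmb2 stood at 24.4, 29.1 and 29.4 CPM, against 48.6, 41.7 and 36.9 CPM with PBS (-0.66, SE 0.12, adjusted p 0.0415). Abcg2, an exporter of drugs and urate, and Hao1, the peroxisomal glycolate oxidase, also differed between the sexes in the PBS livers. Abcg2 stood at 18.1, 56.4 and 51.9 CPM, against 29.4, 75.0 and 29.8 CPM with PBS, and its call (-0.59, SE 0.11, adjusted p 0.0428) came from ratios of 0.613 in females and 0.722 in males. Hao1 stood at 88.2, 163 and 127 CPM, against 130, 238 and 158 CPM with PBS, with ratios of 0.611 in females and 0.608 in males (adjusted p 0.0418). The groups overlapped in both genes when the sexes were pooled. The predicted genes Gm10259 and Gm10184 had nearly the same values in every library, and reads may be shared between them.

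Genes of the circadian clock were not called by edgeR but were apart in most members. Of 21 tested, 0 passed by edgeR, 12 were higher and 0 lower at an unadjusted p under 0.05, and 7 rose and 0 fell by DESeq2. The 3 treated libraries lay above the 3 PBS libraries in 13, beside 7.29% of all genes, and below in 2, beside 8.57%. The median log2 fold change was 0.57. Usp2, a rhythmic deubiquitinase, stood at 51.2, 44.8 and 45.4 CPM with asparaginase, against 14.2, 28.9 and 9.29 CPM with PBS (1.38, SE 0.29, adjusted p 0.0583 by edgeR and 0.000534 by DESeq2). Per1, a repressor of the clock, stood at 45.0, 46.6 and 51.0 CPM, against 26.1, 29.2 and 16.4 CPM with PBS (0.91, SE 0.20, adjusted p 0.0589 by edgeR and 0.00181 by DESeq2). In both genes the treated livers were close together and the PBS livers spread more widely.

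Further clock genes were named after their values were seen. Ciart, a repressor of CLOCK and BMAL1, stood at 23.7, 24.2 and 22.8 CPM with asparaginase, against 3.60, 14.1 and 1.97 CPM with PBS (1.87, SE 0.43, adjusted p 0.0647). Bhlhe41, another repressor, stood at 5.98, 7.07 and 7.06 CPM, against 2.33, 4.60 and 1.62 CPM with PBS (1.11, SE 0.27, adjusted p 0.0676). Arntl, which encodes BMAL1, the activator of the clock, ran the other way with 0.808, 1.14 and 1.02 CPM, against 2.74, 1.99 and 3.85 CPM with PBS (-1.45, SE 0.71, adjusted p 0.298). For these genes the male PBS library was the PBS library nearest to the treated ones, and the groups stayed apart. Nr1d1, a repressor of Arntl, stood at 63.2, 60.5 and 65.0 CPM, against 65.7, 56.2 and 42.7 CPM with PBS (0.19, SE 0.57, adjusted p 0.888). The labels give both groups 7.5 h after an injection at about 8 AM. The clock list summed to 613.4, 688.7 and 575.3 CPM in PBS at 8 weeks and 1002, 972.1 and 927.2 CPM with asparaginase. In PBS it was 974.6, 986.5 and 1039 CPM at 16 weeks and 854.3, 706.9 and 551.9 CPM at 2 weeks. At 16 weeks Usp2 stood at 47.23, 51.83 and 53.35 CPM in PBS and 24.9, 39.32 and 40.22 CPM with asparaginase. Whether sampling time took part in the difference at 8 weeks was not tested.

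**Figure D5:**
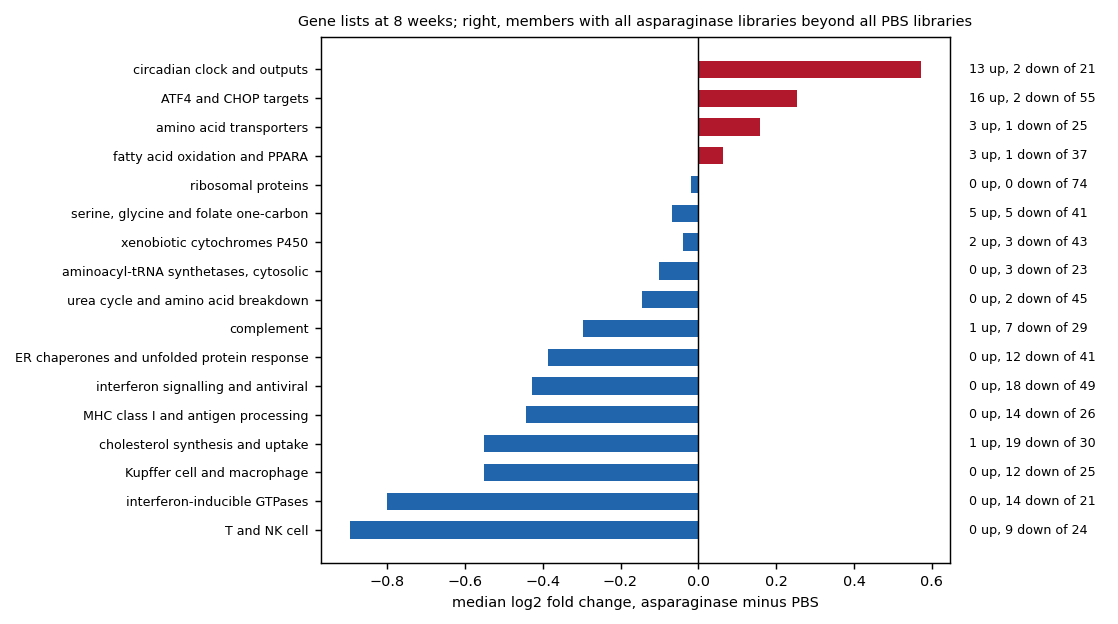
Median log2 fold change (asparaginase minus PBS, edgeR) of 17 gene lists at 8 weeks, with the number of members whose 3 asparaginase libraries lay above (up) or below (down) the 3 PBS libraries on the right. Over all genes tested 7.29% lay above and 8.57% below in this way. The median was 0.57 for clock genes and -0.80 for interferon-inducible GTPases; ribosomal proteins had 0 members apart of 74.

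The 74 ribosomal protein genes tested had a median of -0.02, with 0 calls by edgeR, 0 at an unadjusted p under 0.05, 0 by DESeq2 and 0 with groups apart. The 37 genes of fatty acid oxidation had a median of 0.06, with 0 calls by edgeR, 4 higher at an unadjusted p under 0.05 and 2 rises by DESeq2. Their leading member Cpt1a, the gate of fatty acid entry into mitochondria, stood at 597, 408 and 421 CPM with asparaginase, against 245, 336 and 287 CPM with PBS (0.74, SE 0.18, adjusted p 0.0709). The 45 genes of the urea cycle and amino acid breakdown had a median of -0.14, with 0 calls by edgeR, 1 higher and 7 lower at an unadjusted p under 0.05 and 1 fall by DESeq2. Por, the reductase that feeds electrons to cytochromes P450, stood at 444, 401 and 458 CPM, against 337, 278 and 225 CPM with PBS (0.65, SE 0.14, adjusted p 0.0593). The treated livers were above the PBS livers for Cpt1a and Por, yet neither passed by edgeR.

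The effect at 8 weeks was compared with that at 16 and at 2 weeks in the same fit. The difference from 16 weeks passed for 2 genes (0.0123%), with 1517 (9.36%) at an unadjusted p under 0.05, and DESeq2 gave 147. For Acnat2, an acyltransferase of liver peroxisomes, the 8-week libraries held 13.4, 12.7 and 12.8 CPM with asparaginase, against 27.6, 18.2 and 26.5 CPM with PBS (-0.76, SE 0.14, adjusted p 0.0411). At 16 weeks Acnat2 stood at 10.9, 15.1 and 71.0 CPM with asparaginase, against 43.1, 40.5 and 8.79 CPM with PBS, where the males of each group were the low libraries. Its effect at 8 weeks was lower than that at 16 weeks by 1.43 on the log2 scale (SE 0.19, adjusted p 0.0475). Without a sex term no gene passed in this comparison.

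Cxcl13, a chemokine that attracts B cells, stood at 1.06, 0.484 and 0.621 CPM with asparaginase at 8 weeks, against 2.96, 0.861 and 1.82 CPM with PBS (-0.94, SE 0.30, adjusted p 0.140). At 16 weeks it stood at 17.2, 17.7 and 17.2 CPM with asparaginase, against 3.24, 4.44 and 2.31 CPM with PBS. The effect at 8 weeks was lower by 3.46 on the log2 scale (SE 0.41, adjusted p 0.0229), with the groups apart at 16 weeks and overlapping at 8 weeks.

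For Asns and Psat1 the effect was smaller at 8 than at 16 weeks, short of the threshold. At 16 weeks Asns stood at 27.99, 27.8 and 13.1 CPM with asparaginase, against 0.749, 0.555 and 1.505 CPM with PBS. The effect on Asns was lower at 8 weeks by 2.46 on the log2 scale (SE 0.35, adjusted p 0.0538), and that on Psat1 by 3.07 (SE 0.50, adjusted p 0.106). The effect on Phlda3 was higher at 8 weeks by 2.31 (SE 0.35, adjusted p 0.0774). The difference from 2 weeks passed for 0 genes by edgeR, with 1509 (9.31%) at an unadjusted p under 0.05, 83 by DESeq2 and 1 by limma-voom. Asns at 2 weeks stood at 30.7, 26.4 and 19.4 CPM with asparaginase, against 3.47, 3.93 and 3.69 CPM with PBS, and the 8-week effect was lower by 1.05 (SE 0.32, adjusted p 0.384). The squamous libraries belong to the 8-week treated group, and Evpl differed from 16 weeks by 4.53 (SE 1.12, adjusted p 0.323).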

How the data were processed

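Polyadenylated liver RNA was sequenced in 18 libraries, and the authors deposited 1 table of raw counts for 37315 genes, of which 25426 had a count. TopHat2 2.0.9, TopHat and DESeq2 are named per the submitters' processing notes, with GRCm38 and mm10; the counter, the annotation and the strand setting were not stated in what was used here. Symbols came from GENCODE by identifier (35449 matched), and 1324 of 1337 entries in 46 hand-written lists were matched. Genes were kept by filterByExpr over the 6 groups (minimum count 10, minimum total 15), which left 16213. The main test was edgeR 4.0.16 (R 4.3.3), a quasi-likelihood fit with TMM scaling over the 18 libraries with 6 group means and, for each age, a term for sex, so that a fold change refers to an even mix of the sexes. The Benjamini-Hochberg adjustment ran over all genes tested, with a threshold of 0.05. Adjusted p-values in the text are from edgeR unless DESeq2 1.42.0 or limma-voom (limma 3.58.1) is named. The fit had 9 residual and a median of 3.7 prior degrees of freedom. Each SE is the size of the log2 fold change over the square root of F. Levels are CPM on TMM-scaled library sizes; they compare libraries, not genes. The scripts were tested on simulated data. Total counts of 35651152 to 44371476 in the 6 libraries set the precision at low levels. Intervals cover counting error only.

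Replicates are numbered in accession order, which pairs nothing. No pair of columns was identical (0 pairs). Genes named are Asns, Trib3, Fgf21, Sesn2, Atf4, Ddit3, Ppp1r15a and Atf5; called genes by smallest p, up to 20 each way with a mean of at least 1 CPM; the called members, or else the 2 of smallest p, of each list described; the 8 most abundant epithelial genes; and for differences between ages the 6 of smallest p also called at 8 weeks. Of 59 called genes 12 fall outside this rule, and those named, like all others outside it, were chosen after their values were seen; not every gene it gives is printed, and some are not reported here. The lists, the rule and the comparison were chosen with earlier results of these data known. Of the 59, 18 overlap exons of another gene.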

Additional observations from a re-analysis of the deposited data

Results flagged for a closer look

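The effect of asparaginase on Cxcl13 at 8 weeks minus that at 16 weeks was -3.46 on the log2 scale (edgeR adjusted p 0.0229), and that on Acnat2 was -1.43 (edgeR adjusted p 0.0475); both were picked out because the difference between ages passed its own test. Cxcl13 was lower in the treated livers within each sex at 8 weeks and higher in 3 of 3 treated livers at 16 weeks. For Acnat2, levels at 16 weeks followed the labelled sex more than the treatment, and without a sex term its difference did not pass.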

How the results depend on the processing

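The 59 called genes at 8 weeks (43 of them with the 3 treated libraries beyond the 3 PBS libraries) kept their sign under each alternative in which they were tested. They were picked by their difference in the same libraries, so their signs could hardly change and support nothing. The number of calls moved widely. It was 3111 when libraries were scaled by total counts (3087 higher, 24 lower; the median of all genes was then 0.37, and 985 were beyond PBS in the 3 treated libraries), 659 with DESeq2 (436) and also 659 at an adjusted p under 0.1 (428), 445 without a filter on low counts (320 higher, 125 lower; 270) and 2 without the sex term (2). It was 0 (and 0) when the 3 libraries of 2 weeks that hold transcripts of both sexes were left out and the sex term was kept in adults alone (a joint change), from the 12 adult libraries, from the 6 libraries of 8 weeks with or without a sex term, and without asparaginase replicates 1 and 2. Relative to the median of all genes, 46 of 46 list medians kept their sign under DESeq2 size factors and total counts. Rescaling shifts all genes of a library alike, so these signs could hardly change and support nothing. DESeq2 size factors gave 62 calls, limma-voom 53 and a mean of at least 1 CPM 55. With levels on total counts, 29 rather than 43 were beyond PBS. The 2 differences from 16 weeks became 1 with total counts and under that joint change, 147 with DESeq2, 10 without a filter, and 0 without the sex term or from the adult libraries. The 0 differences from 2 weeks became 83 with DESeq2, 1 with limma-voom and 2 without a filter. Leaving out 1 library gave 0 to 398 calls at 8 weeks, 0 to 199 of them beyond PBS, 0 to 8 and 0 to 12 differences. Fits that leave 1 treated library assume that it varies like the others. The causes were not tested. No paired analysis was possible because the replicate numbers come from the order of deposition. Levels under 1 CPM rest on few counts.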

Other observations

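The constitutive subunits of the proteasome, a list written after values of this comparison had been seen, had negative fold changes with overlapping groups in most members. Their sum was 1489, 1870 and 1991 CPM with asparaginase, against 2409, 2221 and 1888 CPM with PBS, so replicate 3 lay within the PBS range. Of 32 subunits 2 fell by edgeR (Psmd14 and Psmb2) and 12 by DESeq2, 32 of 32 had a negative fold change, and the median log2 fold change was -0.37, beside 0.01 over all genes. The 3 asparaginase libraries lay below the 3 PBS libraries in 10, beside 8.57% of all genes. Psma5, a subunit of the alpha ring, stood at 27.96, 35.7 and 38.8 CPM in asparaginase replicates 1 to 3, against 48.0, 46.4 and 40.5 CPM in PBS replicates 1 to 3 (adjusted p 0.0603 by edgeR). Replicate 1 was the lowest library for Psmd14, Psmb2 and Psma5.

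Genes of cholesterol synthesis and uptake were apart in most members without a call. Of 30 tested, the 3 asparaginase libraries lay below the 3 PBS libraries in 19, beside 8.57% of all genes, and above them in 1, beside 7.29%. The median log2 fold change was -0.55. Neither edgeR, DESeq2 nor limma-voom called a member (0 each), and 1 was higher and 0 lower at an unadjusted p under 0.05. Hmgcs1, an early enzyme of the pathway, stood at 159, 121 and 159 CPM with asparaginase, against 336, 231 and 360 CPM with PBS (-0.93, SE 0.77, adjusted p 0.549). Mvd, a later one, stood at 9.69, 7.89 and 9.69 CPM, against 29.3, 19.4 and 16.3 CPM with PBS (-1.19, SE 0.70, adjusted p 0.385). The standard errors of these genes come from the spread over the 18 libraries. Of 12 erythroid genes tested 0 passed by edgeR or limma-voom, 1 fell by DESeq2, and 1 was higher and 4 lower at an unadjusted p under 0.05. Their groups were apart in 4, all of these lower, beside 8.57% of all genes, and 10 of the 12 fold changes were negative. Hbb-bs, a beta globin, stood at 79.3, 83.4 and 72.9 CPM with asparaginase, against 165, 132 and 139 CPM with PBS (-0.85, SE 0.43, adjusted p 0.312). Hmgcs1, Mvd, Hbb-bs and Psma5 were chosen after their values were seen.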
